A study of Mus musculus with 12 samples.

Results

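Crystallins are the refractive proteins of the eye lens, where they make up most of the soluble protein of the fiber cells. The α-crystallins Cryaa and Cryab are small heat shock chaperones that keep partly unfolded proteins soluble. The β- and γ-crystallins are structural relatives of one another, each built from Greek key motifs, with the β proteins forming oligomers and the γ proteins staying monomeric. Transcripts of all of these classes are also known from the neural retina, where they are known to rise after injury. Described here are 10 of these genes, namely Cryaa, Cryab, Cryba1, Cryba2, Cryba4, Crybb1, Crybb2, Crybb3, Crygs and Crygd, which are 10 of 54146 genes counted. They were chosen by name with their levels in these libraries in view, so their levels, differences and covariation are given as description. All 10 passed the filter on low counts that kept 18628 genes for testing.

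Whole retinas of 12 mice on a 129/SV background were sequenced, 1 library per mouse and 3 mice per condition. The P30 mice carry the label control, with no days after induction given. The P32, P34 and P38 mice were Crx-CreERT2;Otx2 flox/flox conditional knockouts (cKO), in which the Crx promoter drives the tamoxifen-dependent Cre in photoreceptors, and they were killed 2, 4 and 8 d after a single intraperitoneal tamoxifen injection at P30. Whether the P30 mice received tamoxifen was not settled by the labels, so age, injection and deletion changed together across the conditions and cannot be told apart. The genotype of the P30 mice is not stated here, so any difference in genotype from the later mice cannot be told apart from these either. The retinal samples included the retinal pigment epithelium (RPE), and in such bulk RNA a change in the number of cells of a type cannot be told apart from a change in RNA per cell.

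Libraries held 29701483 to 60145034 counts on genes. In CPM, the counts of a gene scaled to the size of its library, 3 counts equalled 0.0473 to 0.102, far below the lowest crystallin value. Otx2, the targeted gene, had 293 to 377 CPM over all of its exons in the 12 mice, and in the mice labelled P32, P34 and P38 it differed from P30 by 0.14, 0.15 and 0.17 on the log2 scale (SE 0.11 each). A count over the whole gene does not show the loss of a floxed exon, so these values check neither the deletion nor the labels, and exon reads were not analysed here. The summed level of 9 retinal marker genes was 36523 to 71061 CPM over all mice. By Xist and Ddx3y counts 7 mice were female and 5 male, with all P30 mice female. The sum of the 10 crystallins ran from 768 to 52868 CPM in females and from 388 to 62803 CPM in males.

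The crystallin genes are spread over the genome, with local pairs (GRCm38, GENCODE M21 models). Cryaa lies on chromosome 17 (31677807 to 31681733, plus strand), Cryab on chromosome 9 (50751325 to 50756636, plus), Cryba1 on chromosome 11 (77718615 to 77725283, minus) and Crygs on chromosome 16 (22805203 to 22811577, minus). Chromosome 5 carries Cryba4 (112246493 to 112252518, minus) and Crybb1 (112255815 to 112269585, plus), which point away from each other across 3296 bases, and Crybb2 (113058258 to 113070117, minus) and Crybb3 (113075839 to 113081584, minus), which lie 5721 bases apart. Chromosome 1 carries Cryba2 (74889934 to 74893143, minus) and Crygd (65061872 to 65063452, minus). Crygd sits in the γ-crystallin cluster, 10722 bases from Cryge and 8072 bases from Crygc.

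Because the 10 genes varied together over the mice, the 100 bases before the RefSeq start of each were searched on both strands (GRCm38.p6, 9 of the 10 genes matched). The searched letters were TGCTGA, the core of the Maf recognition element, TAATCC, the core preferred by Otx2 and Crx, and TATAAA and TATATA, which can overlap one another. TGCTGA was found in 4 of 9 crystallin windows, those of Cryba1, Cryba4, Crybb1 and Crybb3, against 6.95% of all 32851 promoters in the table. TAATCC was in 0 of 9 against 2.3%, and TATAAA or TATATA in 5 of 9 against 7.03%. The 4 windows with TGCTGA are shown without bases that fall inside the GENCODE gene model, with every match in capitals, beside those of Crygd and its neighbor Cryge, whose reads moved together relative to Cryaa as described further on. A match describes these letters only.
Cryba1 (chr11:77725294-77725393, minus): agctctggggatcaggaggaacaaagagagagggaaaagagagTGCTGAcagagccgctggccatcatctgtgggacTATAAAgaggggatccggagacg
Cryba4 (chr5:112252519-112252618, minus): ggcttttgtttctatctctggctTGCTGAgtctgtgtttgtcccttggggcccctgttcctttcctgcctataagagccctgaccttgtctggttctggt
Crybb1 (chr5:112255720-112255814, plus): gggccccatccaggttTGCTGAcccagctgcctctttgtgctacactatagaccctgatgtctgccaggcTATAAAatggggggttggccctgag
Crybb3 (chr5:113081585-113081684, minus): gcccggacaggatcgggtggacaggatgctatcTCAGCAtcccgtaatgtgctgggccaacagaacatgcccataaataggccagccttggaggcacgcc
Crygd (chr1:65063453-65063540, minus): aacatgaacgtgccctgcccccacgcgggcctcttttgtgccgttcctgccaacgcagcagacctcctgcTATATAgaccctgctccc
Cryge (chr1:65051164-65051263, minus): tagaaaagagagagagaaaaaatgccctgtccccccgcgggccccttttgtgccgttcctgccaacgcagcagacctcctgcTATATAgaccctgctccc
In Crybb3 the match is on the opposite strand and reads TCAGCA. Crygd and Cryge share an unbroken run of 56 bases in this window, and Crygd and Crygf one of 45 bases, whereas 2 windows that both lay outside the clustered γ genes Cryga to Crygf shared at most 9 bases in a row. Between a cluster gene and a gene outside it the longest run was 11 bases, shared by Crybb1 with Crygd, Cryge and Crygf, followed by 10 bases in Cryba1 and Cryge.

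Cryaa, the most abundant of the 10 genes in every mouse, showed the range. P30 mice 1, 2 and 3 had 6541, 283 and 19736 CPM, and P32 mice 4, 5 and 6 had 22828, 17450 and 384 CPM. P34 mice 7, 8 and 9 had 150, 406 and 302 CPM, and P38 mice 10, 11 and 12 had 8446, 3389 and 3178 CPM. The P30 and P32 conditions thus each held mice with high and mice with low levels, and the P34 mice were all low. The P38 mice all lay between, as did P30 mouse 1. In P30 mouse 3 and P32 mice 4 and 5 Cryaa was the 2nd most counted gene of the whole library, whereas in P34 mouse 7 it ranked 1309th. The 10 genes together took 0.0368 to 6.55% of all counts on genes, and up to 5 of them were among the 10 most counted genes of a library, in P32 mouse 4.

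**Figure D1:**
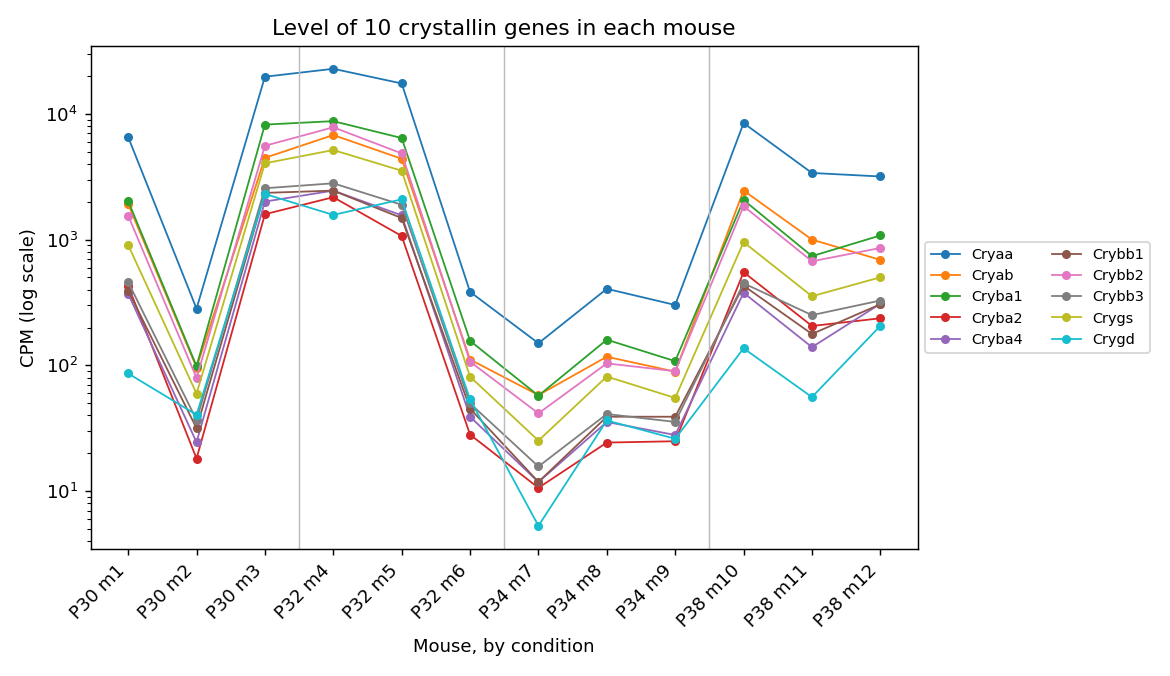
Level of each crystallin gene in each of the 12 mice (CPM, log axis), with thin lines joining the values of one gene and gray lines parting the conditions. P30 mouse 3 and P32 mice 4 and 5 are highest for all 10 genes, and P30 mouse 2, P32 mouse 6 and the 3 P34 mice are the 5 lowest for all 10.

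Cryab, the other α-crystallin and one also made in astrocytes and muscle, had 1918, 96.2 and 4471 CPM in the P30 mice and 6786, 4396 and 111 CPM in the P32 mice. The P34 mice had 58.1, 117 and 89.2 CPM of it, and the P38 mice 2459, 1001 and 690.5 CPM. The order of the mice was nearly that of Cryaa, and the P34 and P30 values overlapped for both genes. The highest level was 117-fold the lowest for Cryab and 152-fold for Cryaa.

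The acidic β-crystallins followed nearly the same order. Cryba1 had 2025, 98.6 and 8217 CPM in the P30 mice (always in the order of the mouse numbers), with 8753, 6424 and 157 in the P32 mice. The P34 mice had 57.4, 160.1 and 108 CPM, the P38 mice 2066, 739 and 1079 CPM. Cryba2 and Cryba4 were lower, between 10.6 and 2175 CPM and between 11.8 and 2452 CPM. All 3 genes were lowest in P34 mouse 7 and highest in P32 mouse 4.

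Of the basic β-crystallins, Crybb2, which has known cataract mutations, was the most abundant. Its levels were 1554, 79.6 and 5573 CPM in the P30 mice, with 7821, 4849 and 107 in the P32 mice. The P34 mice had 41.6, 104 and 89.9 CPM, the P38 mice 1846, 673 and 858 CPM. Crybb1 and Crybb3 ranged from 11.8 to 2453 CPM and from 15.7 to 2805 CPM. The P34 mice lay just below the lowest P32 mouse for Crybb2, 104 against 107 CPM, and far below the other P32 mice.

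Crygs, the γ-crystallin encoded outside the γ cluster and expressed on into adult life, had 907, 59.6 and 4048 CPM in the P30 mice, with 5157, 3532 and 81.4 in the P32 mice, 25.2, 81.6 and 55.1 in the P34 mice, and 956, 355 and 502 in the P38 mice. Crygd, from the γ cluster, whose genes are expressed mainly in young fiber cells, had 86.3, 40.5 and 2307 CPM in the P30 mice, with 1572, 2091 and 53.6 in the P32 mice, 5.3, 36.5 and 26.1 in the P34 mice, and 137, 56.0 and 206 in the P38 mice. Crygd was therefore the exception to the common order. It was highest in P30 mouse 3 rather than P32 mouse 4. P38 mouse 11 (56.0 CPM) and P30 mouse 1 (86.3 CPM) stood near the low mice, such as P32 mouse 6 (53.6 CPM). The highest level of Crygd was 435-fold its lowest, the widest range of the 10.

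The spread within P30 and within P32 was wide. From the lowest to the highest mouse of a condition the 10 genes differed 46.5- to 87.6-fold at P30 and 39.0- to 77.2-fold at P32, but 2.02- to 6.89-fold at P34 and 1.79- to 3.69-fold at P38. Variation among mice of the same condition made up 51.6 to 56.3% of the variance of log2 CPM over all 12 mice, depending on the gene. With 3 mice per condition this share would be high even without any difference between conditions, so it does not measure a condition effect. For the sum of the 10 genes the mean was 22773 CPM (SD 26975, n = 3) at P30, 36203 CPM (SD 31748) at P32, 744 CPM (SD 332) at P34 and 10800.2 CPM (SD 6002) at P38. The SD was as large as the mean or nearly so at P30 and P32, and 44.7 and 55.6% of it at P34 and P38. Across mice the crystallin values were not evenly spaced: for Cryaa the 7th highest mouse stood 7.82-fold above the 8th, and for the 10 genes this step was 1.04-fold (Crygd) to 7.82-fold.

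Each cKO age was compared with P30 to ask whether the crystallin transcripts changed after tamoxifen, with edgeR's quasi-likelihood test on all genes (called: p adjusted by the Benjamini-Hochberg method not above 0.05, with an absolute log2 fold change not below 0.5). At P32 the 10 log2 fold changes were 0.52 to 0.83 (SE 1.18 to 1.36), and the mice of the conditions overlapped for every gene, where 5.26% of all genes were higher without overlap. At P34 they were -5.16 to -4.62 (SE 1.37 to 1.62), for example -4.95 for Cryaa and -5.16 for Crygd. At P38 they were -2.61 to -0.64 (SE 1.18 to 1.43), again with overlap for every gene, where 7.96% of all genes were lower without overlap. The median of the 10 was 0.66, -4.97 and -1.44 at the 3 ages, where the median over all 18628 genes was -0.01, 0.00 and -0.01. These comparisons share the P30 mice.

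No crystallin passed edgeR's adjusted test at any age, with 0 of 10 higher at P32 (background 0%), 0 of 10 lower at P34 (background 0.66%) and 0 of 10 lower at P38 (background 0%). Without the adjustment edgeR called 0 higher at P32 (1.13% of all genes), 10 lower at P34 (5.42%) and 0 lower at P38 (2.66%). DESeq2's adjusted test called 0 higher at P32 (0.0484%), 10 lower at P34 (1.79%) and 0 lower at P38 (0.188%). With no filter on low counts, edgeR's adjusted test called 10 of 10 lower at P34, against 0.865% of 33982 genes. No statement about the crystallins is drawn from these counts, because the contrasts were in view when the genes were chosen.

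**Figure D2:**
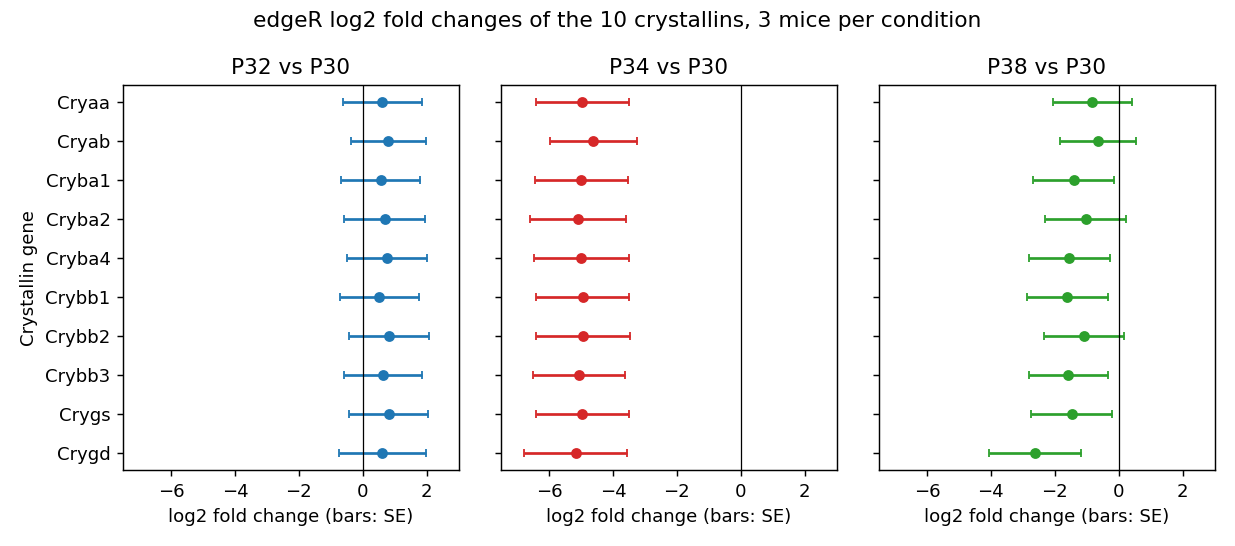
Log2 fold change from P30 of each crystallin at P32, P34 and P38 (edgeR, horizontal bars: SE, 3 mice per condition). Values are 0.52 to 0.83 at P32, -5.16 to -4.62 at P34 and -2.61 to -0.64 at P38, and SEs exceed 1 throughout.

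The P34 values were low in all 3 mice but not below all P30 mice. For 9 of the genes P30 mouse 2 lay among them, and only Crygd had its highest P34 value, 36.5 CPM, below its lowest P30 value, 40.5 CPM (1 of 10 genes without overlap, against 9.67% of all genes). Against P32, 6 of 10 genes had no overlap (Cryba2, Cryba4, Crybb1, Crybb2, Crybb3 and Crygd), where 13.6% of all genes were without overlap in that direction. Between P34 and P38 all 10 genes had no overlap, P38 being higher, against 5.36% of all genes. For Cryaa the highest P34 mouse had 406 CPM and the lowest P38 mouse 3178 CPM.

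The remaining comparisons between cKO ages were wide in size and in error. From P32 to P34 the 10 log2 fold changes were -5.77 to -5.42 (SE 1.42 to 1.66), from P34 to P38 2.55 to 4.13 (SE 1.33 to 1.44), and from P32 to P38 -3.22 to -1.44 (SE 1.20 to 1.47). For all 3 comparisons edgeR's adjusted test called 0 of 10, against backgrounds of 0.242% lower, 0.199% higher and 0% lower. Without the adjustment it called 10 lower from P32 to P34 (8.93% of all genes), 9 higher from P34 to P38 (3.01%) and 1 lower from P32 to P38 (6.23%). The gene left out of the 9 was Crygd, which was also the 1 called from P32 to P38. DESeq2's adjusted test called 10 lower (4.98%), 1 higher, which was Cryaa (0.763%), and 0 lower (2.5%). With no filter edgeR's adjusted test called 10 lower from P32 to P34, against 1.25% of genes, and with only the conditions compared in the fit 9 higher from P34 to P38, against 0.396%. From P32 to P38 the conditions overlapped for all 10 genes, where 13.2% of all genes were lower without overlap.

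Single mice decided several of these values. Without P30 mouse 3 the P30 mean of the sum of the 10 genes went from 22773 to 7726 CPM, and without P32 mouse 4 the P32 mean went from 36203 to 22903 CPM. Without P30 mouse 3, the 10 genes had median log2 fold changes of 2.49, -3.24 and 0.47 at P32, P34 and P38, so that the direction at P38 turned for all 10 genes. Without P30 mouse 2 the 3 medians became 0.09, -5.54 and -2.01. Without P32 mouse 4, 5 of the 10 genes were lower at P32 than at P30 and 5 higher, with a median of 0.01. Without P32 mouse 6, edgeR's adjusted test called 10 of 10 genes lower at P34 than at P32, against 6.87% of genes tested.

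The make-up of the crystallin reads changed much less than their amount. Of the reads on the 10 genes, the α-crystallins held 45.8 to 62.8%, the β-crystallins 31.3 to 42.2% and Crygs with Crygd 5.88 to 13.0%. Cryaa alone held 36.3 to 48.5%. P30 mouse 2 and P30 mouse 3, whose totals were 768 and 52868 CPM, had Cryaa shares of 36.8 and 37.3%. The highest Cryaa shares, 44.6, 47.7 and 48.5%, belonged to P30 mouse 1 and P38 mice 10 and 11, and these 3 mice also had the lowest Crygd shares, 0.588, 0.772 and 0.801%.

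**Figure D3:**
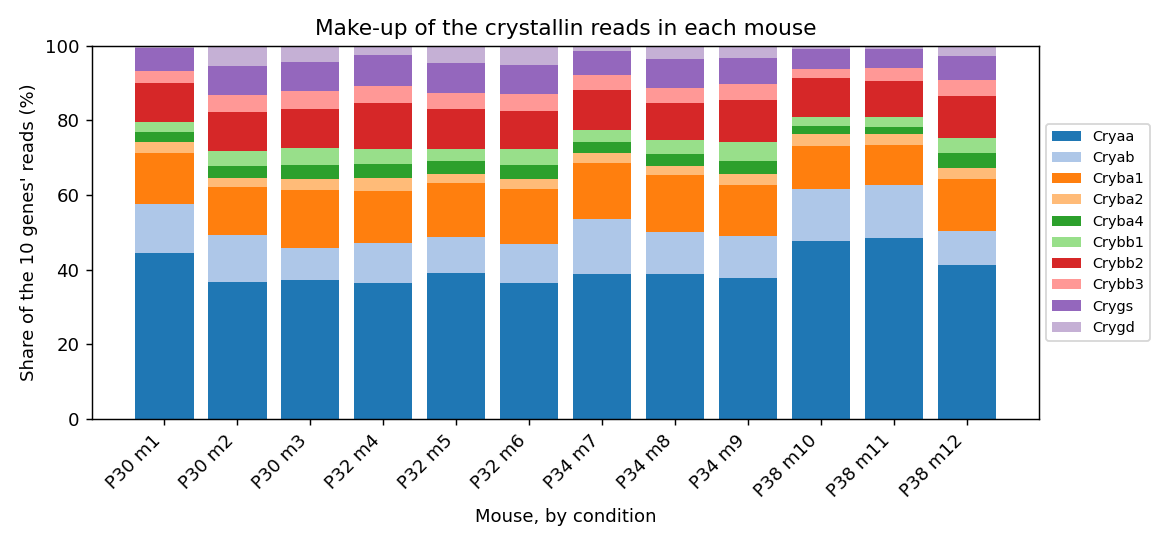
Share of each gene (%) in the reads on the 10 crystallins, 1 bar per mouse. Cryaa takes 36.3 to 48.5% in every mouse, and Crygd from 0.588% in P30 mouse 1 to 5.27% in P30 mouse 2.

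Set against Cryaa, Crygd moved over a wider range than the other members. Per 1000 Cryaa reads there were 217 to 387 Cryab reads, 218 to 416 Cryba1 reads, 199 to 343 Crybb2 reads and 105 to 226 Crygs reads, which are 1.78-, 1.91-, 1.73- and 2.16-fold ranges. Cryba2 ranged 1.59-fold, and Cryba4, Crybb1 and Crybb3 2.61-, 2.54- and 2.45-fold. Crygd ran from 13.2 to 143 reads per 1000 Cryaa reads, a 10.9-fold range. The 5 other genes of the γ cluster ranged 7.41-fold (Crygc) to 22.2-fold (Cryga) relative to Cryaa. Crygn, the divergent γN-crystallin encoded on chromosome 5, ranged 2.46-fold.

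Summed over Crygd, Cryga, Crygb, Crygc, Cryge and Crygf, there were 68.3, 545 and 492 reads per 1000 Cryaa reads in P30 mice 1 to 3 and 312, 448 and 575 in P32 mice 4 to 6. There were 167, 355 and 380 in P34 mice 7 to 9 and 69.8, 68.0 and 264 in P38 mice 10 to 12. The 3 values below 70 came from one P30 control and a pair of P38 cKO mice, and P30 mouse 2 and P30 mouse 3 had like ratios at very different crystallin levels. The P38 mice all lay below the P32 mice in this ratio, and every other pair of conditions overlapped. The same 3 mice had the 3 lowest ratios to Cryaa for 7 of the 9 other members, namely Cryba1, Cryba4, Crybb1, Crybb2, Crybb3, Crygs and Crygd, but not for Cryab and Cryba2. Cryba4, for example, had 56.7, 44.8 and 41.2 reads per 1000 Cryaa reads in P30 mouse 1 and P38 mice 10 and 11 and at least 78.8 in the other mice. A pair of lens fiber genes, chosen after their values were seen, had their lowest ratios to Cryaa in the same 3 mice. Lgsn, a glutamine synthetase relative found in lens fiber cells, had 2.34, 4.65 and 3.5 reads per 1000 Cryaa reads in P30 mouse 1 and P38 mice 10 and 11 and 9.94 to 34.7 in the other mice. Bfsp1, which encodes filensin of the beaded filaments, had 3.05, 4.31 and 3.82 in those mice and 10.2 to 27.6 in the others.

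**Figure D4:**
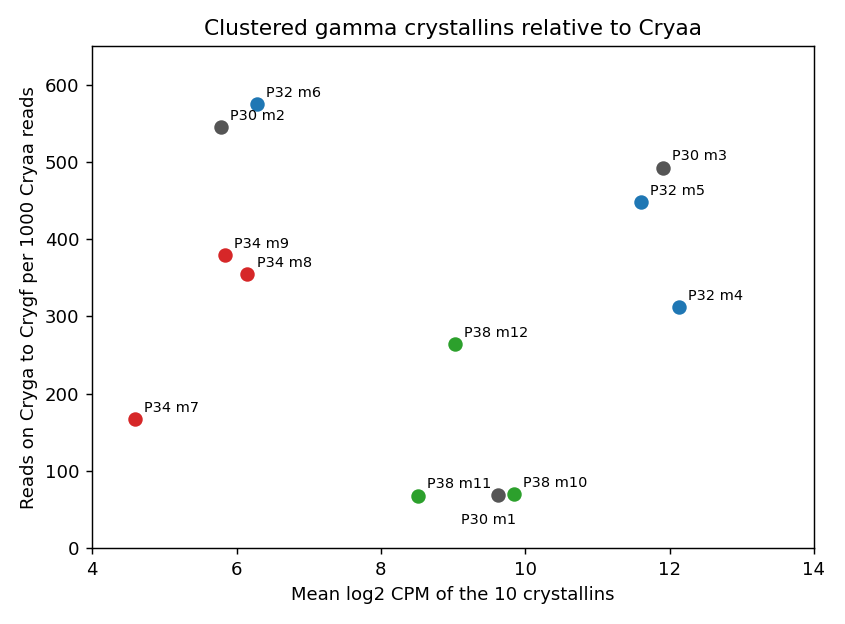
Reads on the 6 clustered γ-crystallin genes (Cryga to Crygf) per 1000 Cryaa reads against the mean log2 CPM of the 10 crystallins, 1 point per mouse and 1 color per condition. P30 mouse 1 and P38 mice 10 and 11 lie together at 68.0 to 69.8, and the other 9 mice at 167 to 575.

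The counts of Crygd carry a limit that the other members mostly do not. Of its 50-base stretches, 19.7% are also present in transcripts of other genes, among them Cryge, Crygf and Cryga, and its coding sequence is 91.6% identical to that of Cryge and 90.6% to that of Crygf. Reads with more than 1 position were not counted, so levels of these genes are uncertain, and the part of this in the ratios above was not tested. The shared stretches of Cryab, 13.3%, lie in Hspb2, whose gene model overlaps Cryab by 1030 bases on the opposite strand. For Cryaa 8.37% were shared, with a single unnamed gene model, AC090881.2, and for the other 7 members 0%. The α-crystallins Cryaa and Cryab had 58.3% identical coding sequence, and Crybb2 and Crybb3 65.1%.

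Levels between genes were compared per kilobase of exon. On that scale Cryaa was first of 16 crystallin genes in all 12 mice, with 72.3 to 10996 CPM per kb (median 1582). Crygs, a much shorter transcript, had 28.8 to 5894 CPM per kb and ranked 2nd to 4th, and Cryab 39.3 to 4588 CPM per kb and ranked 2nd to 6th. Crygd ranked 8th to 12th, with 5.16 to 2244 CPM per kb. Neighbors below Cryaa exchanged places between mice, so no fixed order holds for them.

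The covariation of the 10 genes over the 12 mice was close. Over the 45 pairs Pearson's r of log2 CPM was 0.874 to 0.999 (median 0.994) and Spearman's rho 0.902 to 1 (median 0.986). After the mean of each condition was taken out, r was 0.829 to 0.998, and without the pair of mice farthest from the median, P34 mouse 7 and P32 mouse 4, it was 0.812 to 0.999. The lowest values all involved Crygd, whose 9 pairs had r of 0.874 to 0.948, whereas the 36 pairs without it had r of 0.978 to 0.999. The points share library and depth, and the mice fall into groups of high, middle and low values, so these correlations describe a common ordering of mice and carry no test.

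**Figure D5:**
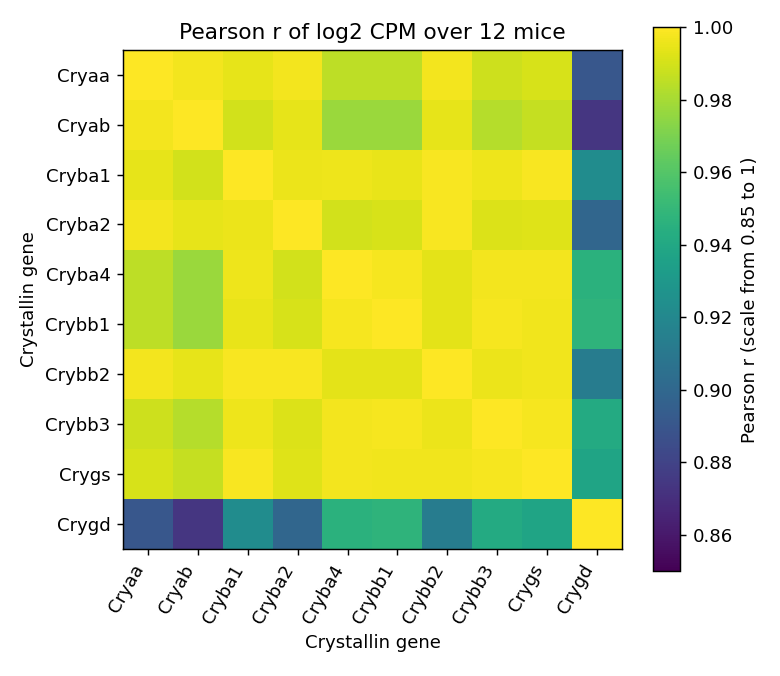
Pearson's r of log2 CPM over the 12 mice for each pair of crystallins (color scale from 0.85 to 1). The 9 pairs with Crygd have r of 0.874 to 0.948 and the other 36 pairs 0.978 to 0.999.

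Of 18618 other genes tested, those whose log2 CPM followed the mean of the 10 crystallins most closely over the 12 mice were Grifin (r = 0.99, rho = 0.99), a lens galectin relative, and Lim2 (r = 0.99, rho = 0.97), a membrane protein of fiber cells. Next came Tmem40 (r = 0.99), Lctl (r = 0.99), S100a4, a calcium-binding protein (r = 0.98), Crygn (r = 0.98), Cd24a, a cell surface glycoprotein (r = 0.98), Mip, the water channel aquaporin 0 of lens fibers (r = 0.98), and the gene models Gm42808 (r = 0.97) and Gm9991 (r = 0.96). By Spearman's rho 7 of these 10 were again among the 10 closest. Mip ranged from 0.663 CPM in P34 mouse 7 to 920 CPM in P30 mouse 3.

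The 13 other genes with crystallin names were 6 further γ genes, 4 enzyme relatives and Crybg1, Crybg2 and Crybg3, larger proteins that carry βγ-crystallin domains and are not lens crystallins. The 6 γ genes had r of 0.90 to 0.98 with the mean of the 10. Crym, Cryz, Cryzl1 and Cryl1, relatives of the enzymes that serve as lens crystallins in other species, ranged 1.77-, 1.46-, 1.21- and 1.66-fold over all mice, with r between -0.20 and 0.21. Crybg1, Crybg2 and Crybg3 had r of -0.02, 0.09 and -0.55, and ranged 3.12-, 3.25- and 2.61-fold. Crybg1 had 1.86, 3.35 and 3.39 CPM in the P30 mice and 1.32, 1.09 and 1.38 in the P32 mice, which lay below all P30 mice, a log2 fold change of -1.18 (SE 0.26). Of the 13 genes on this list edgeR's adjusted test called 0 at P32, P34 and P38 in either direction. Unadjusted it called 2 lower at P32 (Crybg1 and Crybg3), 7 at P34 (the 6 γ genes and Crybg1) and 1 at P38 (Crybg1), where 1.77, 5.42 and 2.66% of all genes were lower by that rule. DESeq2's adjusted test called 1 lower at P32 (Crybg1), 3 at P34 (Crygc, Crygf and Crygn) and 0 at P38, against 0.0914, 1.79 and 0.188% of all genes, giving no adjusted p at P34 for Cryga, Crygb and Cryge.

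Genes of the lens fiber membrane and cytoskeleton went with the crystallins. Of 11 tested, 10 had r of 0.83 to 0.99 with the crystallin mean, and only Tdrd7, an RNA granule protein that was expressed at 379 to 593 CPM in every mouse, had a lower r, 0.40. The median log2 fold change of the 11 was 0.09, -5.90 and -2.14 from P30 to P32, P34 and P38. edgeR's adjusted test called 0 of 11 at each age. Unadjusted it called 0, 10 and 2 lower (all genes: 1.77, 5.42 and 2.66%), and DESeq2's adjusted test 0, 8 and 0 lower (0.0914, 1.79 and 0.188%), giving no adjusted p at P34 for Bfsp2. Bfsp2, the filament partner of Bfsp1, had 195 CPM in P30 mouse 3 but 13.1 and 10.6 CPM in P32 mice 4 and 5, where the 10 crystallins summed to 62803 and 44749 CPM.

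Lens transcription factors fell on both sides. Sox1, Maf, Foxe3, Pitx3 and Hsf4, regulators of lens epithelium or fiber genes, had r of 0.84 to 0.95 with the crystallin mean. Pax6, Prox1, Six3 and Meis1, which retinal cells use as well, ranged 1.46- to 1.87-fold over the mice, with r of -0.52 to -0.08. Sox2 and Mafg had r of 0.33 and 0.15. Foxe3, a factor of the lens epithelium, had 2.57 and 1.95 CPM in P38 mice 10 and 11 and 0.0679 CPM in P38 mouse 12. edgeR's adjusted test called 0 of 12 factors at each age. Unadjusted it called 0, 2 and 0 lower, where 5.42% of all genes were lower at P34, and DESeq2's adjusted test called 0 at each age.

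The small heat shock proteins related to the α-crystallins did not all share the pattern. Hspb1 and Hspb2 ranged 29- and 32.7-fold, with r of 0.88 and 0.90, the latter being the neighbor that overlaps Cryab. Hspb3 ranged 11.8-fold, at 0.147 to 1.74 CPM, with r of 0.69. Hspb6 had 104 to 165 CPM and Hspb8 7.37 to 14.9 CPM over all mice, with r of -0.12 and -0.09. Of the 5 tested, edgeR's adjusted test called 0 at each age, unadjusted 1, 2 and 0 were lower (all genes: 1.77, 5.42 and 2.66%), and DESeq2's adjusted test called 0 at each age.

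Markers of other eye tissues varied between mice, in part with the crystallins and in part not. The summed level of 6 cornea and surface epithelium genes was 48.7 and 53.6 CPM in P32 mice with high crystallins and 1.45 CPM in P32 mouse 6, and 23.9, 3.65 and 16.9 CPM in the P30 mice, 1.27 to 4.04 CPM at P34 and 5.43 to 34.2 CPM at P38. Much of this sum was Aldh3a1, a crystallin of the cornea, with 37.7 and 33.5 CPM in P32 mice 4 and 5, 31.1 CPM in P38 mouse 10 and 0.419 CPM in P32 mouse 6. The cornea list was split among the P30 mice. The corneal keratins Krt12 and Krt5 were lowest in P30 mouse 3, at 0.327 and 0.208 CPM, although its crystallins were the highest of the condition. Krt14 was at 0 in that mouse. Aldh3a1 and Krt15 were instead lowest in P30 mouse 2, at 0.828 and 0.202 CPM, and Dsg1a was highest in P30 mouse 3, at 2.05 CPM. The 6 smooth muscle genes of iris, ciliary body and vessels summed to 19.5, 153 and 172 CPM in P30 mice 1 to 3, 5.96 to 39.1 CPM at P32, 4.63 to 7.14 CPM at P34 and 11.4 to 15.2 CPM at P38. RPE and melanocyte genes summed to 238, 886 and 887 CPM in P30 mice 1 to 3 and to 116 to 348 CPM at the later ages. In P30 mice 2 and 3 that sum was mostly pigment genes, such as Dct with 61.7, 390 and 310 CPM and Pmel with 25.1, 258 and 202 CPM in P30 mice 1 to 3. Genes of the RPE visual cycle in the same list had another order, Rpe65 having 13.2, 5.59 and 21.5 CPM and Rgr 44.3, 30.0 and 85.9 CPM, with 10.1 to 25.3 and 33.8 to 92.8 CPM at the later ages. P30 mouse 2, which had the lowest crystallins of its condition (768 CPM), was thus the lowest P30 mouse for Rpe65 and Rgr but close to P30 mouse 3 (52868 CPM of crystallins) for the smooth muscle sum and above it for Dct and Pmel. At P34 edgeR's adjusted test called 1 of 5 cornea (Dsg1a), 3 of 4 smooth muscle (Myh11, Acta2 and Tagln) and 2 of 10 RPE and melanocyte genes (Tyrp1 and Mlana) lower than at P30, against 0.66% of all genes. Retina, retinal stress and blood markers had 0 genes called at any age by that test. Blood markers summed to 19.9 to 154 CPM, with the highest value at P32, and retinal stress genes to 91.3 to 183 CPM. In the P34 mice Krt14 of the cornea list and Actg2 of the smooth muscle list were at 0. The part of these tissues in the crystallin levels was not tested.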

How the data were processed

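Per the labels and the submitters' processing notes, total RNA of full retinas was made into poly(A)-selected, strand-specific libraries, and the authors mapped the reads to mm10 with STAR 2.5.3a and counted them per gene with HTSeq 0.6.1p1. The deposited files hold whole-number counts per gene, not normalized, 1 file per mouse. Rows for reads with no feature, with several features or without a unique position were left out of the totals.

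Counts were scaled by TMM to CPM in edgeR 4.0.16 (R 4.3.3). Genes were filtered by edgeR's rule on low counts, and 1 quasi-likelihood fit over all 12 mice with 1 mean per condition gave every comparison, adjusted by the Benjamini-Hochberg method over 18628 genes. The standard error is the log2 fold change divided by the square root of F. Log2 CPM used a prior count of 2. DESeq2 1.42.0 was an alternative, beside its size factors, no filter, fits on 2 conditions and leaving out each mouse. On simulated counts, 94 of 100 genes changed by log2 2 and 69 of 100 changed by log2 1 were recovered, in a comparison made like P34 against P30, and 8 unchanged genes were called among 18395 genes tested. The changed genes were drawn at random from expressed genes, each with its own spread. That recovery does not describe the crystallins, whose SEs at P34 against P30 were 1.37 to 1.62. Floors of 3 counts cover counting error only.

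The members and the gene lists were chosen with earlier results of these data known. Genes named beyond the members are list genes, of which Lgsn, Bfsp1, Bfsp2, Tdrd7 and Foxe3 were singled out after their values were seen, and the 10 with the highest Pearson's r to the members' mean. Promoters came from RefSeq (GRCm38.p6) and gene models from GENCODE M21. Protein sequences and some list genes are not reported here. The mice are separate animals by their labels.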

Additional observations from a re-analysis of the deposited data

How the results depend on the processing

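The count of crystallins called by edgeR depended on the test and on the filter. At P34 against P30 it was 0 of 10 with all settings as reported, 10 at an unadjusted p, 10 by DESeq2's test and 10 with no filter on low counts (against 0.865% of 33982 genes). At P34 against P32 it was 10 unadjusted, 10 by DESeq2's test and 10 with no filter (against 1.25%), and 0 to 10 over fits that left out 1 mouse each, 10 being without P32 mouse 6. At P38 against P34 it was 9 unadjusted, 1 by DESeq2's test and 9 with only the conditions compared (against 0.396%). At P38 against P32 it was 1 unadjusted. The lists of other crystallin names, lens fiber genes and lens factors hold 37 genes, some of them not lens crystallins. Lenep among them did not pass the filter. edgeR's adjusted test called 0 at P32, P34 and P38. Unadjusted it called 2, 19 and 3 lower (1.77, 5.42 and 2.66% of all genes), the 2 being Crybg1 and Crybg3. DESeq2's test called 1 (Crybg1) and 11 lower at P32 and P34 (0.0914 and 1.79%). With no filter 15 were called at P34, where 0.865% of genes were lower. When 1 mouse was left out, 0 to 1 were called at P34. The causes were not tested. DESeq2's size factors, and sex as a covariate, which was chosen after seeing the data, called 0 of 10 in every comparison. Of 480 values for the log2 fold changes of single crystallins, 477 moved by less than 1 SD within conditions, an SD that itself exceeds 2 on the log2 scale. The mean of the sum of the 10 genes moved by less than 1 SD when a mouse was left out, but that SD is near or above the mean at P30 and P32. It moved 2.95-fold at P30 without P30 mouse 3, to 7726 CPM, 1.58-fold at P32 without P32 mouse 4, to 22903 CPM, and at most 1.49-fold otherwise. The median pairwise correlation was 0.992 to 0.995 when 1 mouse was left out, 0.994 with a smaller prior count and 0.991 without the pair of mice farthest from the median or with condition means taken out. No paired analysis was possible because the mice of different conditions share no replicate number. Depth did not limit the crystallins, since each had at least 192 counts in every mouse.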
